A study of Mus musculus with 9 samples.

Results

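The 40 genes described here encode the collagens, elastic fibre proteins, matrix glycoproteins, lysyl oxidases and matrix proteases that fibroblasts are known for, and what was measured is the openness of their chromatin. They were taken as a named list of 40 of the 21938 protein-coding genes in the GENCODE M21 annotation, chosen by function, and the rule used no measured value; each of the 40 names matched 1 gene. The assay was ATAC-Seq, which uses a transposase to cut and tag exposed DNA, and the cells were primary mouse embryonic fibroblasts (MEFs) below passage 8. The 4 groups were WT MEFs (3 libraries), Anp32e null MEFs (3 libraries), Anp32e null MEFs given non-targeting (NT) siRNA (1 library) and Anp32e null MEFs given pooled siRNAs against H2A.Z (2 libraries). Both siRNA groups therefore carried the Anp32e deletion and the lipid transfection, and differed in the siRNA. ANP32E is a chaperone that removes the histone variant H2A.Z from chromatin, and the comparisons ask how accessibility differed without the chaperone and then with H2A.Z depleted as well.

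The libraries of a group were pooled by the authors into 1 list of peaks, so each group is a single list here, no value has an error over replicates, and no test between groups was possible. The number of embryos behind each group is not given in the sources used here. In bulk libraries a site open in fewer cells and a site less open in each cell cannot be told apart. The lists held 84040 peaks in WT, 82567 in the null, 89272 with NT siRNA and 108409 with H2A.Z siRNA. The genome-wide background, the fragment pileup that the peak caller took as its floor and that was recovered from its values, was 8.85, 5.12, 3.88 and 17.8 in the same order. By this background the H2A.Z siRNA list was the deepest and the NT siRNA list the shallowest. The median summit pileup of a peak was 50, 43, 54 and 156, lowest in the null. Read depth itself is not known. All 10 fibroblast marker genes, such as Pdgfra, Thy1 and Prrx1, had a peak at a start site in all 4 lists. Of the markers of other cells, 3, 3, 4 and 4 of 6 epithelial, 4, 3, 4 and 4 of 5 endothelial, 2, 2, 2 and 3 of 5 blood, 1, 1, 1 and 2 of 4 pluripotent, 1, 2, 2 and 3 of 4 neural and 2 of 4 cartilage and bone genes had one. A peak at a start site is not a measure of expression, and the purity of the cultures was not tested.

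The fibroblast matrix is built in layers. Fibrillar collagens are secreted as procollagen triple helices, trimmed, assembled into fibrils and cross-linked by lysyl oxidases, while fibril-associated collagens and small leucine-rich proteoglycans coat the fibrils and limit their width. Microfibrils of fibrillin and fibulin carry elastin, collagen VI forms beaded filaments around the cell, and collagen IV forms the network of basement membranes. Fibronectin and the matricellular proteins link this scaffold to cell surface receptors, and metalloproteinases with their TIMP inhibitors remodel it.

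Chromatin was open at nearly all of these genes, and the same genes were open in each group. A peak overlapped the 1 kb on either side of a transcription start site (TSS) for 37 of the 40 genes in every list (92.5%, 95% Wilson interval 80.1 to 97.4%). Intervals of shares and single percentiles cover counting error only, and those of medians the spread over genes. No interval given here covers error over replicates. The same measure found a peak for 67.2% of all protein-coding genes in WT, 66.7% in the null, 66.8% with NT siRNA and 68.4% with H2A.Z siRNA. The 3 genes without one were the same in each list: Postn, which encodes the matricellular protein periostin, Lum, which encodes the proteoglycan lumican, and Loxl2, a lysyl oxidase.

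These 3 genes were not alike in how far the nearest peak lay. The nearest peak to a Postn start was 2074, 2061, 2090 and 1976 bp away in the WT, null, NT siRNA and H2A.Z siRNA lists. For Lum it was 8576, 8469, 8540 and 8501 bp away. For Loxl2 it was 82370, 82144, 82154 and 82109 bp away, and its locus of 107 kb held 1, 1, 2 and 2 peaks. Postn thus had a nearer peak than the other two, whereas the start of Loxl2 stood in a stretch with no called peak in any list.

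No matrix gene gained or lost its TSS peak in any pair of lists. Between the null and WT lists, 0 of the 40 genes had a peak in the null alone and 0 in WT alone, against 1.4% and 1.89% of all genes. Between the H2A.Z siRNA and NT siRNA lists the counts were again 0 and 0, against 2.06% and 0.483%. Between NT siRNA and the null they were 0 and 0, against 2.03% and 1.85%. With 40 genes a count of 0 allows a share of up to 8.76%, the upper end of its Wilson interval, so these counts are near the background.

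The strength of each peak was read from the fold that the peak caller gives, the pileup at the summit over the local background, and turned into a percentile within its own list, since the lists differ in depth. A percentile of 100 is the highest fold in the list. By this measure the TSS peaks of the matrix genes were of middling height. Their median percentile was 68.8 in WT (95% interval of the median 55.9 to 73.8), 60.0 in the null (51.7 to 70.4), 57.9 with NT siRNA (50.4 to 66.9) and 63.3 with H2A.Z siRNA (59.4 to 73.4). The medians over all genes with a TSS peak were 81.7, 80, 79.5 and 81.5, above the matrix genes' interval in each list.

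**Figure D1:**
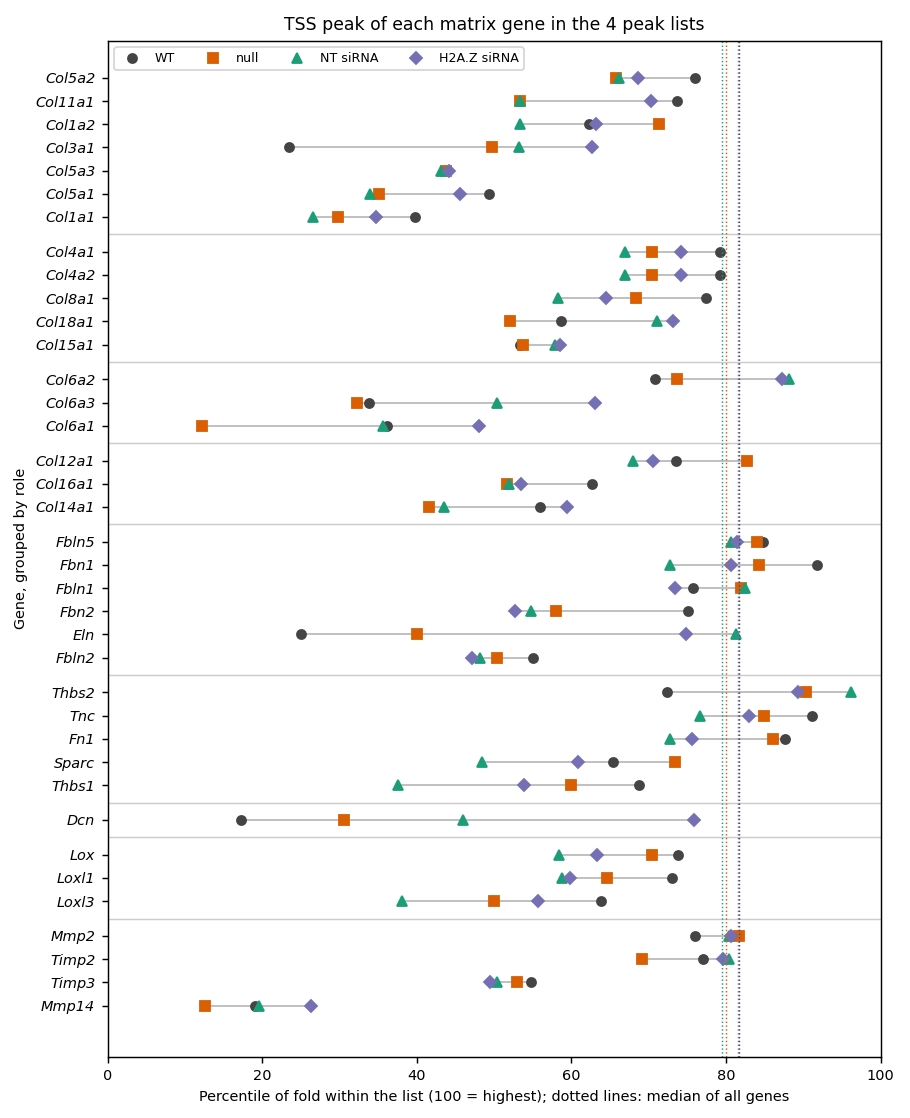
Percentile of the highest TSS peak of each of the 37 matrix genes, on a linear axis from 0 to 100, in the WT, null, NT siRNA and H2A.Z siRNA peak lists (circle, square, triangle, diamond), grouped by the role of the gene; dotted vertical lines give the median of all protein-coding genes in each list. Most points lie left of the dotted lines, Thbs2 and Tnc are among those to the right of them, and Col3a1, Eln and Dcn span the widest ranges.

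The fold is set by the ground around a peak as well as by its summit. The local background at the TSS peaks of matrix genes had a median of 2.29 times the genome-wide background in WT (1.80 to 2.78), 3.20 in the null (2.37 to 3.70), 6.68 with NT siRNA (5.77 to 8.88) and 6.37 with H2A.Z siRNA (4.69 to 7.99). At the TSS peaks of all genes it was 1.99, 2.5, 4.61 and 4.20 times, inside the matrix genes' interval in WT and the null and below it in both siRNA lists. Ranked by summit pileup instead, the matrix genes stood at a median percentile of 80.1, 81.2, 87.5 and 89.2, beside 86.3, 85.6, 88.4 and 89.7 for all genes, a far smaller gap. In the null and both siRNA lists the all-gene median fell inside the matrix genes' interval (71.8 to 85.9, 83.8 to 92.0 and 86.6 to 93.1), whereas in WT the 86.3 of all genes lay just above the upper end of 86.2. The 2 rankings parted widely at some genes whose percentiles by fold alone are given below: with NT siRNA, Loxl1 stood at 58.8 by fold and 98.2 by pileup, Col16a1 at 51.9 and 97.1, Thbs1 at 37.6 and 95.3, Fbln2 at 48.2 and 95.7, and Col5a1 at 33.9 and 91.5.

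**Figure D2:**
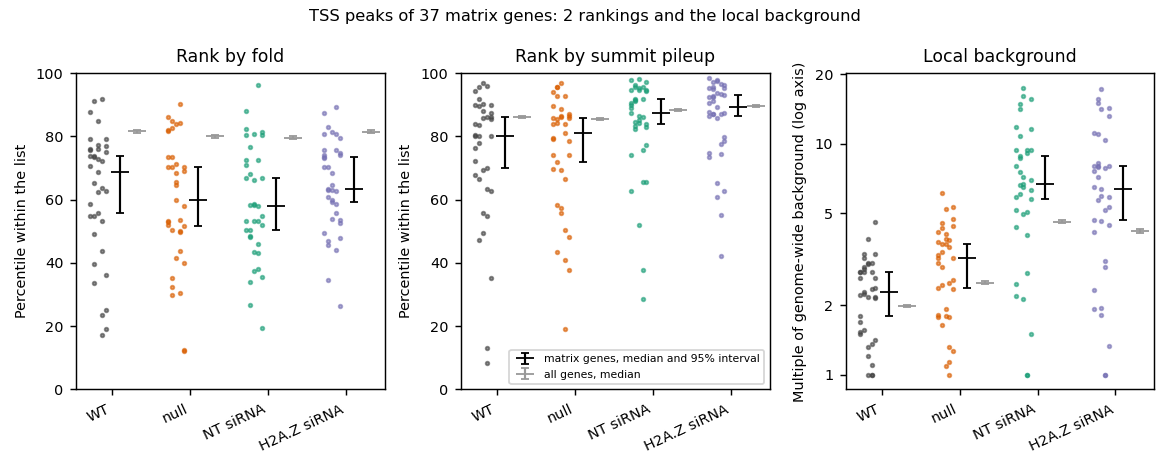
The same 37 TSS peaks ranked by fold (left, percentile) and by summit pileup (middle, percentile), and the local background around them as a multiple of the genome-wide background (right, log axis). Each dot is 1 gene, black bars give the median of the matrix genes with its 95% interval and grey bars that of all genes: the matrix genes lie below all genes by fold, close to them by pileup, and higher in median local background, with intervals that include the all-gene median in WT and the null.

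Col1a1 and Col1a2 encode the chains of collagen I, the main fibril of skin, bone and tendon. The TSS peak of Col1a1 (gene at chr11:94936224-94953042 of GRCm38, the build also called mm10, plus strand) had a fold of 3.48 in WT, 3.92 in the null, 4.58 with NT siRNA and 3.88 with H2A.Z siRNA. These folds placed it at percentiles 39.7, 29.8, 26.6 and 34.7, among the lowest of the 37 genes. Its summit pileups of 73, 52, 196 and 762 placed it at 66.6, 58.3, 84.7 and 87.2 instead. The ground around the peak was 2.29, 2.45, 10.8 and 11 times the genome-wide background. In the 2 siRNA lists Col1a1 thus combined a high summit with high ground. Its highest peak was 1935 and 2039 bp wide there, against 1228 bp in WT and 451 bp in the null. In the null the start sites held 2 peaks and this was the one of higher fold. The summit lay at -580, -532, -479 and -477 bp from the nearest start, negative values being upstream of that start. This start was an internal one. The summits at chr11:94937106, 94937154, 94937207 and 94937209 lay downstream of the gene's 5′ end. In the null the peak over the 5′ end, from -0.041 to 0.329 kb, stood at percentile 15.9.

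Col1a2 (chr6:4504814-4541544, plus strand) was less simple, because a different peak was the highest in different lists. The fold percentiles were 62.3 in WT, 71.3 in the null, 53.4 with NT siRNA and 63.2 with H2A.Z siRNA. The summit lay at 1002 and 961 bp from the nearest start in WT and the null, at -57 bp with NT siRNA and at 660 bp with H2A.Z siRNA, and the start sites overlapped 2, 3, 6 and 6 peaks. Its highest peak was the same site in WT and the null, while the other 2 comparisons, of the siRNA lists and of the null with NT siRNA, set different sites side by side.

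Of the other fibrillar collagens, Col3a1 (chr1:45311538-45349706, plus strand), whose product forms the thin fibrils of skin and vessels, ranged most. Its percentiles were 23.5 in WT, 49.7 in the null, 53.2 with NT siRNA and 62.6 with H2A.Z siRNA, on pileups of 27, 35, 87 and 384. The WT peak was close to the calling limit, with a counting interval of 0.325 to 50.4, and that of the null ran from 26.5 to 67.1, so the intervals of these 2 lists overlapped. The collagen V genes, whose chains nucleate fibrils, lay apart from each other: Col5a2 was the highest of the 3 in every list at 76.0, 65.7, 66.1 and 68.6, while Col5a1 stood at 49.3, 35.1, 33.9 and 45.6 and Col5a3 at 43.9, 43.8, 43.1 and 44.1. Col5a3 was the steadiest of them, with a spread of 1.09 points. Col5a1 had the widest TSS peaks of all matrix genes in the null, NT siRNA and H2A.Z siRNA lists, at 2567, 3460 and 4205 bp, and 1853 bp in WT, where the peak of Col11a1 at 2564 bp was wider. Col11a1, a minor fibril chain best known from cartilage, had percentiles of 73.7, 53.3, 53.4 and 70.3.

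The promoters of the following 6 genes are shown because they mark the range of these values: a fibrillar gene with GC boxes and 1 without, the gene with the highest mean percentile (Thbs2), that with the lowest (Mmp14), that with the largest fall from WT to the null (Col6a1), and the promoter that Col4a1 shares with Col4a2. They are RefSeq promoters of GRCm38.p6, from 250 bases before to 50 after the annotated start, written 5′ to 3′ on the strand of the gene. These are the RefSeq starts, which for some genes are not the 5′ end of the GENCODE gene. Capitals mark CCAAT (the NF-Y box), GGGCGG (the SP1 or GC box), TATAAA (the TATA box) and TGANTCA (the AP-1 motif). A match on the other strand is marked as its reverse complement, and matches that overlap or touch run together. The intervals are chr6:4505368-4505667 (plus), chr1:45311288-45311587 (plus), chr17:14694213-14694512 (minus), chr14:54431348-54431647 (plus), chr10:76725995-76726294 (minus) and chr8:11312777-11313076 (minus).
Col1a2: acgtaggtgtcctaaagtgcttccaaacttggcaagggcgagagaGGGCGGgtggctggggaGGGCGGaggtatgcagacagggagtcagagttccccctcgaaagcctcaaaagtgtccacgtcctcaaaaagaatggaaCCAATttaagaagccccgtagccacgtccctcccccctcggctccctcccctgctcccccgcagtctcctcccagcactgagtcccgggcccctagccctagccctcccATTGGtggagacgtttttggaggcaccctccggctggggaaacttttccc
Col3a1: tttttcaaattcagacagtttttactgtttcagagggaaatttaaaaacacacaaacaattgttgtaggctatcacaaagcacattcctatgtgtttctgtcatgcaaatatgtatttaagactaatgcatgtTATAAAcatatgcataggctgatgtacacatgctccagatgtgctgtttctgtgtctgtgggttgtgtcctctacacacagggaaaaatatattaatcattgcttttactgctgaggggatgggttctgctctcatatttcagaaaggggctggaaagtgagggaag
Thbs2: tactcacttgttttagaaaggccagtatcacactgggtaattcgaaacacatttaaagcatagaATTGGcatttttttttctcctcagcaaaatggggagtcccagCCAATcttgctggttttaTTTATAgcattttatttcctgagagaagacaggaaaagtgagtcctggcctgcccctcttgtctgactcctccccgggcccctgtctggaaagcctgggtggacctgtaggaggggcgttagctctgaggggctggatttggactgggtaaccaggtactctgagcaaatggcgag
Mmp14: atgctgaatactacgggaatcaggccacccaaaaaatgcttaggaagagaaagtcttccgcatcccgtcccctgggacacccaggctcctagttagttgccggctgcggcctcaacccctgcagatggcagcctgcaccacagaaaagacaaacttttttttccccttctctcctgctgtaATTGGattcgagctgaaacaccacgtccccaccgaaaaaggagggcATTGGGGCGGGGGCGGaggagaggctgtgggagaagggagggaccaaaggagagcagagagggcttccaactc
Col6a1: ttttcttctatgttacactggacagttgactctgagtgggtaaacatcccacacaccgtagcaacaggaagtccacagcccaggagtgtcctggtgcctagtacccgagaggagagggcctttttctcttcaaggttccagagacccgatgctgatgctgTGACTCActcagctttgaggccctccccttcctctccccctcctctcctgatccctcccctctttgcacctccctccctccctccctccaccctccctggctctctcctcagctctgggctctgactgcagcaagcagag
Col4a1: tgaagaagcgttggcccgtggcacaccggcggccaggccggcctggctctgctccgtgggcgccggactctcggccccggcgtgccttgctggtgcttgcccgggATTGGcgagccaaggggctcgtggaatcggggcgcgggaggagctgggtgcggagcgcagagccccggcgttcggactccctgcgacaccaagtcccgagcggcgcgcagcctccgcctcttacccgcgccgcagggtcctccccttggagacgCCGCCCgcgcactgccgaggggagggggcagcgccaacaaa

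The promoter of Col1a2 held 2 CCAAT boxes and 2 GC boxes, that of Mmp14 also held 2 of each, and that of Col4a1 held 1 of each. That of Col3a1 held a TATAAA and neither of these, that of Thbs2 held 2 CCAAT boxes and a TATAAA, and that of Col6a1 held the AP-1 motif alone of the 4 marked. RefSeq promoters were matched for 25 of the 40 matrix genes. CCAAT was present in 11 of the 25 (44.0%), beside 38.8% of the 16538 promoters matched for all protein-coding genes, and TATAAA in 4 (16%), beside 12.9%. GGGCGG was present in 17 (68.0%), beside 48.2% of all promoters but 65.2% of those whose gene had a TSS peak in all 4 lists. TGANTCA was present in 1 (4.00%, all promoters 7%), GGAATG (the TEAD motif) in 1 (4.00%, all 13.2%), TGTGGT (the RUNX motif) in 3 (12.0%, all 14.8%) and the CArG box, bound by SRF, in 0 (all 1.52%). The last 3 were searched on both strands too and are not marked in the promoters; a TATA box and a CArG box can overlap. These are matches of letters in a window of 300 bases and show no binding.

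The matrix promoters were poor in CpG for genes with an open start. The observed over expected ratio of CpG had a median of 0.54 over the 25 promoters, 0.60 over all promoters and 0.76 over those with a TSS peak in all 4 lists. A ratio below 0.6 was found in 18 of the 25 (72.0%), beside 49.8% of all promoters and 27.7% of those with a TSS peak in all lists. CpG-poor promoters ranked lower by fold in general, with all-gene medians of 71.3, 70.6, 70.3 and 72.0 in the 4 lists, against 85.1, 83.5, 82.7 and 85.0 for the CpG-rich. The matrix genes lay below the all-gene median of their own class in every list: the 17 CpG-poor ones with a TSS peak had medians of 62.6, 53.7, 53.4 and 63.2, and the 7 CpG-rich ones 77.0, 69.1, 66.9 and 74.2. How far CpG content accounts for the ranks was not tested.

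Among the network and basement membrane collagens, Col4a1 and Col4a2 encode the main chains of collagen IV and overlap at their divergent starts on chromosome 8. Their best TSS peak is 1 and the same peak, 2207, 2160, 2371 and 2403 bp wide, so the 2 genes are not independent points. It stood at percentiles 79.2, 70.4, 66.9 and 74.2, with pileups of 177, 134, 364 and 1355. Col8a1, a short-chain network collagen, stood at 77.4, 68.3, 58.2 and 64.5. Col15a1 and Col18a1 encode collagens of the basement membrane zone, the second known for the fragment endostatin. Col15a1 stood at 53.4, 53.7, 57.9 and 58.5 and Col18a1 at 58.7, 52.1, 71.1 and 73.1.

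Collagen VI had the lowest median percentile of the collagen groups in WT, 36.1, yet 1 of its genes ranked near the top in the siRNA lists. Col6a2 stood at 70.8, 73.6, 88.1 and 87.3, the latter pair second of the 37 genes. Col6a1 stood at 36.1, 12.2, 35.6 and 48.0, and Col6a3 at 33.8, 32.3, 50.4 and 63.0. The chains of 1 heterotrimer thus differed widely, and in the null Col6a1 was the lowest of the 37 genes. The counting interval of Col6a1 in the null ran from 0.487 to 31.7 and in WT from 15.6 to 52.2, on pileups of 41 and 66. Of the fibril-associated collagens, Col12a1 stood at 73.5, 82.7, 68.0 and 70.5, Col16a1 at 62.6, 51.7, 51.9 and 53.5, and Col14a1 at 55.9, 41.6, 43.5 and 59.4. The best peak of Col14a1 had its summit at -1063, -1188, -1190 and -1101 bp from the nearest start.

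The 6 elastic fibre genes had median percentiles of 75.4, 69.9, 76.7 and 74.1, below the all-gene medians of 81.7, 80, 79.5 and 81.5. Fbn1, which encodes the fibrillin of most adult microfibrils, was first of the 37 in WT at 91.8, and then stood at 84.3, 72.7 and 80.7. Fbln5, a fibulin needed to assemble elastic fibres, ranged over 4.06 points, at 84.8, 84.0, 80.7 and 81.4. Fbln1 stood at 75.7, 81.9, 82.4 and 73.4, Fbln2 at 55, 50.4, 48.2 and 47.1, and Fbn2, the fibrillin of embryonic tissue, at 75.1, 58.0, 54.8 and 52.7. Eln, which encodes elastin itself, moved the most of the 37 genes between the null and NT siRNA, standing at 25 and 40 in WT and the null and 81.3 and 74.8 with NT and H2A.Z siRNA. Its summit lay at -1071 bp in WT and -1070 bp in the other lists, with the edge of the peak inside the 1 kb limit, and its pileups were 38, 33, 87 and 238. The ground around it was 1.41, 1.27, 1.5 and 1.34 times the genome-wide background, and its percentile by pileup was 35.3, 37.9, 65.7 and 62.8, so at Eln the fold and the pileup moved the same way between these 2 pairs of lists.

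Of the adhesive and matricellular genes, Thbs2, which encodes thrombospondin 2, had the highest mean percentile of the list. Its percentiles were 72.3 in WT, 90.3 in the null, 96.2 with NT siRNA and 89.3 with H2A.Z siRNA, on peaks of 627, 649, 690 and 753 bp, and it was first of the 37 in the last 3 lists. Tnc, which encodes tenascin C, a glycoprotein of developing and healing tissue, stood at 91.1, 84.9, 76.6 and 83.0. Fn1 (chr1:71585520-71653200, minus strand), which encodes fibronectin, stood at 87.6, 86.1, 72.7 and 75.6. Its summit pileup was nonetheless at percentiles 94.3, 94.0, 98.0 and 98.4, and its local background 2.78, 3.76, 11.8 and 11.1 times the genome-wide value. Sparc, a collagen-binding glycoprotein, stood at 65.4, 73.4, 48.4 and 60.8, and Thbs1, the other thrombospondin of the list, at 68.8, 60.0, 37.6 and 53.8. The best peak of Thbs1 had its summit at -1239, -1415, -1134 and -1366 bp from the nearest start.

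Dcn, which encodes the fibril-coating proteoglycan decorin, had the lowest TSS peak of the list in WT and stood eighth of the 37 with H2A.Z siRNA. Its percentiles were 17.2 in WT, 30.6 in the null, 45.9 with NT siRNA and 75.8 with H2A.Z siRNA. The pileups were 25, 23, 31 and 184, at a local background equal to the genome-wide one in each list. That background was 8.85, 5.12, 3.88 and 17.8, so the pileups were 2.82, 4.49, 7.99 and 10.3 times it. Ranked by pileup, Dcn stood at percentiles 8.46, 19.1, 28.5 and 55.2. The counting intervals were 0.0524 to 46.0, 3.74 to 55.1, 26.2 to 64.3 and 69.4 to 82.0, so the H2A.Z siRNA interval did not overlap any of the others.

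The lysyl oxidases oxidise lysines of collagen and elastin for cross-linking. By fold, Lox stood at 73.8, 70.4, 58.4 and 63.3, Loxl1 at 73.0, 64.6, 58.8 and 59.8, and Loxl3 at 63.8, 50, 38.1 and 55.7. For each of these 3 genes the percentile by fold was highest in WT and lowest with NT siRNA, as in the all-gene medians. The folds themselves were lowest in WT, at 6.49, 6.39 and 5.24. The list of highest percentile by pileup differed from gene to gene. Lox was highest in the null at 95.5, Loxl1 with NT siRNA at 98.2 and Loxl3 with H2A.Z siRNA at 93.3. Among the proteases and inhibitors, Mmp2, a gelatinase, stood at 76.0, 81.7, 80.4 and 80.7, Timp2, its inhibitor and cofactor, at 77.0, 69.1, 80.4 and 79.6, and Timp3, a matrix-bound inhibitor, at 54.8, 52.9, 50.4 and 49.5, with different peaks of highest fold in WT and the null and in the 2 siRNA lists. Mmp14, the membrane-bound activator of Mmp2, had the lowest mean percentile of the list at 19.1, 12.5, 19.5 and 26.3. By pileup it stood at 80.1, 74.0, 83.8 and 87.5, since its local background was 4.60, 5.32, 11.6 and 13.2 times the genome-wide value, the highest of the list in WT.

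From WT to the null more matrix genes moved down in fold rank than up, as did most genes. Of the 37 genes 26 (70.3%) moved down and 11 up, where 62.4% of all genes moved down, and the median change was -6.20 points (95% interval -8.84 to -0.787), beside a median of -1.36 over 14317 genes with a TSS peak in both lists. Relative to all genes the median change was -4.83 points (-7.47 to 0.576), and with the pileups of the deeper list scaled down so that the 2 lists had an equal background it was -4.89 (-8.59 to 0.0168), so both intervals included 0. The background stands in for the read depth, which is not known. A move of 10 points or more downward was found at 8 genes (21.6%, interval 11.4 to 37.2%), where 11.1% of all genes moved so, and upward at 4 genes (10.8%, 4.29 to 24.7%), where 6.52% did. Fold ranks near the middle have more room to move than those near the top. Among the 3667 genes with a mean percentile between the quartiles of the matrix genes, 48.8 and 74.8, 21.9% moved down and 9.84% up by 10 points or more, with a median of -3.27, and of the 20 matrix genes in that range 6 moved down and 0 up.

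The genes that fell most were Col6a1 by 23.8 points, Col11a1 by 20.4 and Fbn2 by 17.1. Col5a1, Col14a1, Loxl3, Col16a1 and Col5a2 were the other 5 of the 8 that fell by 10 points or more. The 4 that rose by 10 points or more were Col3a1 by 26.2 points, Thbs2 by 18, Eln by 15.0 and Dcn by 13.4. Of these 4, Thbs2 had the firmest values, since its counting intervals of 60.5 to 82.3 in WT and 82.7 to 96.0 in the null did not overlap, whereas those of Col3a1, Eln and Dcn did.

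Ranked by pileup, 18 of the 37 genes moved up and 19 down from WT to the null, where 6011 of 14317 genes moved up and 8305 down, with a median change of -0.0534 points, beside -0.408 for all genes. By pileup 1 gene (2.70%) fell and 3 (8.11%) rose by 10 points or more, where 8.51% and 3.55% of all genes did, so the balance of falls and rises seen by fold was turned. On the scale of pileup over genome-wide background, the median log2 ratio of null to WT was 0.64 at the matrix genes and 0.65 at all genes. The local background was 3.20 times the genome-wide value in the null and 2.29 in WT, with intervals that overlapped, and it was also higher in the null over all genes. Its part in the fold ranks was not tested.

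With H2A.Z siRNA most matrix genes stood higher in their list than with NT siRNA, as did most genes. Of the 37 genes 29 (78.4%) moved up and 8 down, where 67.0% of all genes moved up, with a median change of 4.92 points (1.09 to 7.97), beside 2.08 over 14559 genes. Relative to all genes the median change was 2.84 points (-0.991 to 5.89), an interval that included 0. A rise of 10 points or more was found at 9 genes (24.3%, 13.4 to 40.1%), where 14.1% of all genes rose so, and a fall of that size at 0 genes, where 2.56% fell. Among the 3546 genes of the same middle range, 23.2% rose and 3.38% fell by 10 points or more, and 5 of the 19 matrix genes there rose, so the count was near that background. Ranked by pileup, 2 matrix genes (5.41%) rose by 10 points or more, where 7.18% of all genes did, and the median change was 1.11 points beside 1.14, so by pileup there was no excess over all genes.

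The genes that rose most with H2A.Z siRNA were Dcn by 29.8 points, Loxl3 by 17.6 and Col11a1 by 16.8. Thbs1, Col14a1, Col6a3, Sparc, Col6a1 and Col5a1 made up the rest of the 9. The largest moves down were those of Fbln1 by 9.03 points, Thbs2 by 6.90 and Eln by 6.56. All 7 fibrillar collagen genes moved up in rank, with a median of 9.45 points. Of all genes 67.0% moved up, and genes of the middle range had a median of 4.99. These are moves of rank within a list. As pileup over genome-wide background, the median log2 ratio to NT siRNA was -0.24 at these 7 genes. It was -0.30 at the matrix genes and -0.31 at all genes. Col1a2 was compared between different peaks. The H2A.Z siRNA list is also the longest, and a longer list holds more weak peaks under a given gene. With the same number of peaks kept from each list, the median change was -3.53 points for the matrix genes and -0.963 for all genes, so the direction of this comparison turned with the length of the lists. Scaled to an equal background instead, it was 3.41 points, beside 1.66 for all genes.

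The null and NT siRNA lists, which share the Anp32e deletion and differ in transfection, also differed, with large moves in both directions. From the null to NT siRNA, 16 genes (43.2%) moved up and 21 (56.8%) down, near the 46.1% and 53.9% of all genes, with a median of -1.30 points (-3.41 to 0.507), beside -0.523 for 14219 genes. Rises of 10 points or more were found at 7 genes (18.9%), where 13.5% of all genes rose so, and falls at 9 genes (24.3%), where 12.3% fell. The largest rises were those of Eln by 41.4 points, Col6a1 by 23.4 and Col18a1 by 19.0, and the largest falls those of Sparc by 24.9, Thbs1 by 22.4 and Col1a2 by 17.9, the last between different peaks.

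By pileup this pair looked different. Ranked by pileup, the matrix genes rose by a median of 8.70 points (2.71 to 11.5) from the null to NT siRNA, with 14 rising and 2 falling by 10 points or more (37.8% and 5.41%), where 20.8% and 10.0% of all genes did. The median log2 ratio of pileup over background was 1.62 at the matrix genes and 1.09 at all genes. The local background at the matrix genes was higher as well, 6.68 against 3.20 times the genome-wide value, as it was over all genes, 4.61 against 2.5, and the fold did not follow the summits. These 2 lists differ in transfection and in library, with 1 library in the NT siRNA group, and the 2 cannot be told apart.

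**Figure D3:**
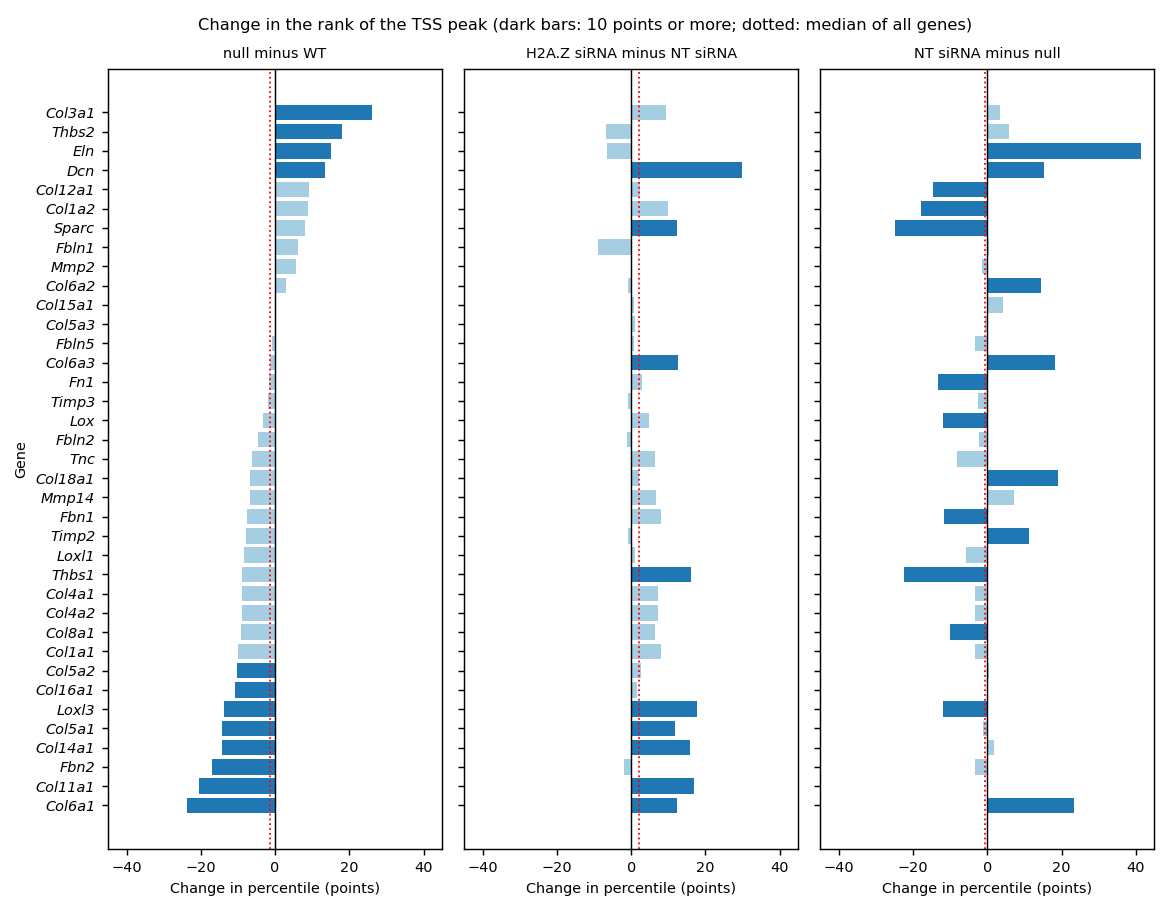
Change in the percentile of the TSS peak by fold, in points, for each of the 37 matrix genes from WT to null, from NT siRNA to H2A.Z siRNA and from null to NT siRNA; dark bars mark changes of 10 points or more and dotted lines the median of all genes. Genes are in the order of the first panel, where 26 bars point down, while 29 bars point up in the second panel and the third has both the longest rise (Eln) and falls of over 20 points (Sparc, Thbs1).

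The order of the genes within the list held to a varying degree. Across the 37 genes, the Spearman correlation of percentiles was 0.84 between WT and the null and 0.87 between the 2 siRNA lists, and lowest, at 0.59, between WT and H2A.Z siRNA. Over 13986 genes with a TSS peak in all lists it was 0.94, 0.94 and 0.83 for the same pairs. The points share their lists and, for Col4a1 and Col4a2, their peak, and genes of a narrower range of ranks give lower correlations, so these are descriptions. Thbs2, Tnc, Fbln5, Fbn1, Fn1, Fbln1 and Mmp2 were at percentiles of 72.3 or more in all 4 lists, and Mmp14 and Col1a1 below 40 in all 4.

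The TSS peaks of matrix genes were about as wide as those of other genes. The median width at matrix genes was 1191 bp in WT (919 to 1289), 984 bp in the null (862 to 1287), 1208 bp with NT siRNA (997 to 1350) and 1390 bp with H2A.Z siRNA (1246 to 2039). All genes had medians of 1149, 1116, 1083 and 1294 bp. From NT siRNA to H2A.Z siRNA, 34 of the 37 peaks were wider, as were 13748 of 14559 over all genes, with a median ratio of 1.10 beside 1.14. From WT to the null, 19 of 37 were wider, beside 5774 of 14317, with a median ratio of 1.02 beside 0.981. Both counts include Timp3, and the first Col1a2, whose highest peaks were different ones in the lists compared. Some large gains with H2A.Z siRNA were at starts where fewer, longer peaks were called in that list: Col12a1 had 752, 684, 772 and 2146 bp, and Mmp2 504, 728, 651 and 1812 bp.

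Over whole loci, with the TSS peaks counted, the matrix genes had more peaks per 100 kb at the median than all genes. The loci, each a gene body with 10 kb on either side, held 315 peaks in WT, 333 in the null, 391 with NT siRNA and 503 with H2A.Z siRNA. In lists shortened to 1 common length the loci held 296, 333, 329 and 300, so the order of the lists turned with their length. Per 100 kb the median gene had 8.70 peaks in WT (7.15 to 11.2), 10.2 in the null (6.87 to 11.2), 12.2 with NT siRNA (8.65 to 14.4) and 15.2 with H2A.Z siRNA (10.3 to 18.7). The medians over all genes were 5.40, 5.25, 6.05 and 7.63. Genes with a TSS peak in all 4 lists, a fairer comparison for a list in which most genes have one, had 7.21, 7.18, 8.23 and 10.2. Of the 40 matrix genes 26, 25, 28 and 27 lay above those medians. Those medians fell inside the matrix genes' intervals in WT and the null and below them in the siRNA lists.

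Peak numbers differed most between lists at some of the long collagen, fibrillin and fibronectin genes. Col5a1 (locus of 173 kb) held 11, 10, 22 and 38 peaks in the WT, null, NT siRNA and H2A.Z siRNA lists, the most of any matrix gene in the last. Fn1 held 6, 6, 6 and 21, a count that rose with H2A.Z siRNA alone, and Fbn1 held 19, 18, 28 and 33. Col6a3 went from 5 and 7 to 12 and 18, Col1a2 from 5 and 9 to 11 and 16, and Fbln2 from 9 and 12 to 15 and 21. The densest loci over the 4 lists were those of Thbs1, Mmp14 and Timp3, with means of 24.1, 23.7 and 19.2 peaks per 100 kb, and the sparsest those of Loxl2, Col11a1 and Lum, with 1.40, 1.78 and 3.63. Some loci hardly differed: Col15a1 held 14, 14, 14 and 16, Mmp14 held 8 in every list, and Lum 1. Fbn2 went the other way, with 10, 14, 10 and 9.

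**Figure D4:**
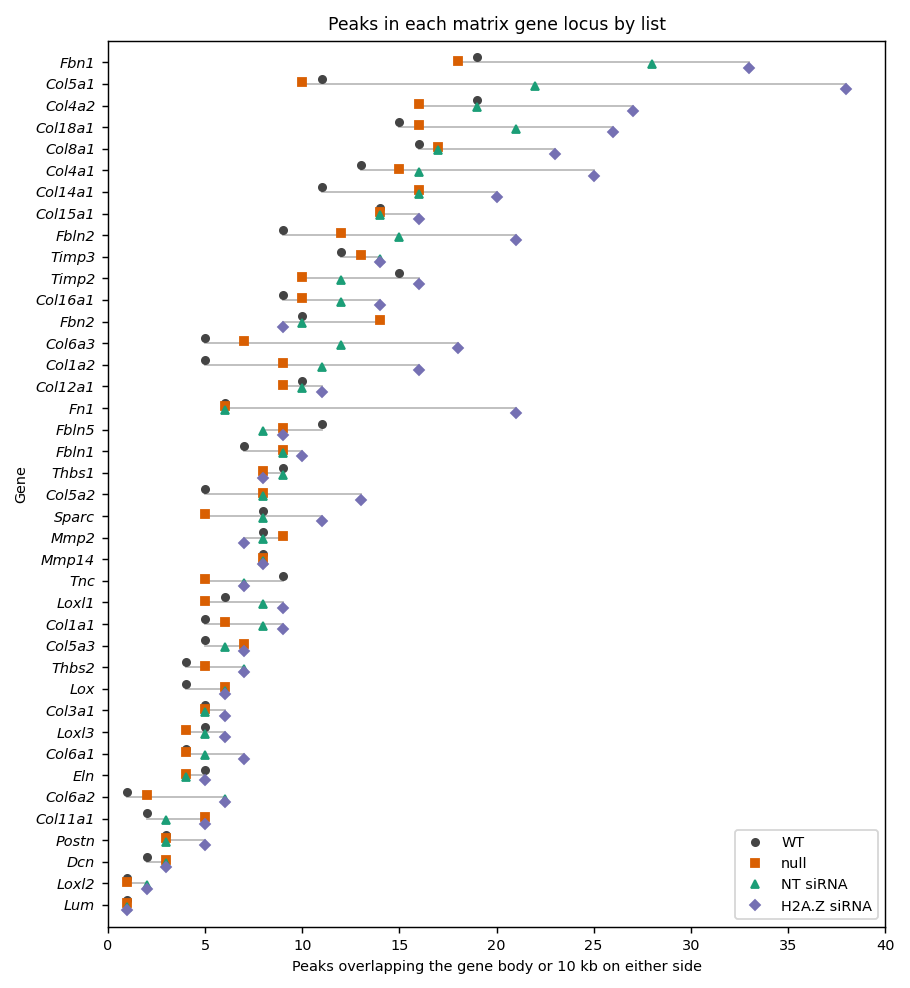
Number of peaks in the gene body and 10 kb on either side of each of the 40 matrix genes in the 4 lists, ordered by the mean over lists. The symbols of most genes lie close together, while Col5a1 (10 to 38), Fn1 (6 to 21) and Fbn1 (18 to 33) spread far to the right with H2A.Z siRNA.

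From WT to the null the locus held more peaks at 20 genes (50%) and fewer at 12 (30%), where 21.1% and 23.8% of all genes had more and fewer. From NT siRNA to H2A.Z siRNA it held more at 28 genes (70%) and fewer at 3 (7.50%), where 43.1% and 7.58% did. From the null to NT siRNA it held more at 22 (55%) and fewer at 5 (12.5%), where 32.8% and 17.6% did. A locus with many peaks can change its count more easily than one with few, and the matrix loci had more peaks than most, and how far this accounts for the excess over all genes was not tested. At an equal background the pair of siRNA lists gave more peaks at 18 genes and fewer at 7, where 28.9% and 14.5% of all genes had more and fewer. The sites called with H2A.Z siRNA alone were mostly weak, since 100 of the 112 at all matrix loci lay below percentile 25 of that list. Their median was 5.57 (quartiles 1.93 and 13.4) and the highest stood at 53.7, beside a median of 61.2 for the 239 sites called in all 4 lists. Of the 40 sites of Col5a1, 18 were called in that list alone, 16 of them within the gene body, at a median percentile of 2.63, beside 52.7 for its 6 sites called in all lists. Of the 22 sites of Fn1, 13 were called in that list alone, at a median of 2.56 and at most 7.4, beside 36.1 for its 3 sites called in all lists. The added peaks of these 2 genes thus mostly lay near the calling limit of the deepest list. At an equal background the H2A.Z and NT siRNA lists held 9 and 6 peaks at Fn1, 24 and 22 at Col5a1, and 28 each at Fbn1.

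**Figure D5:**
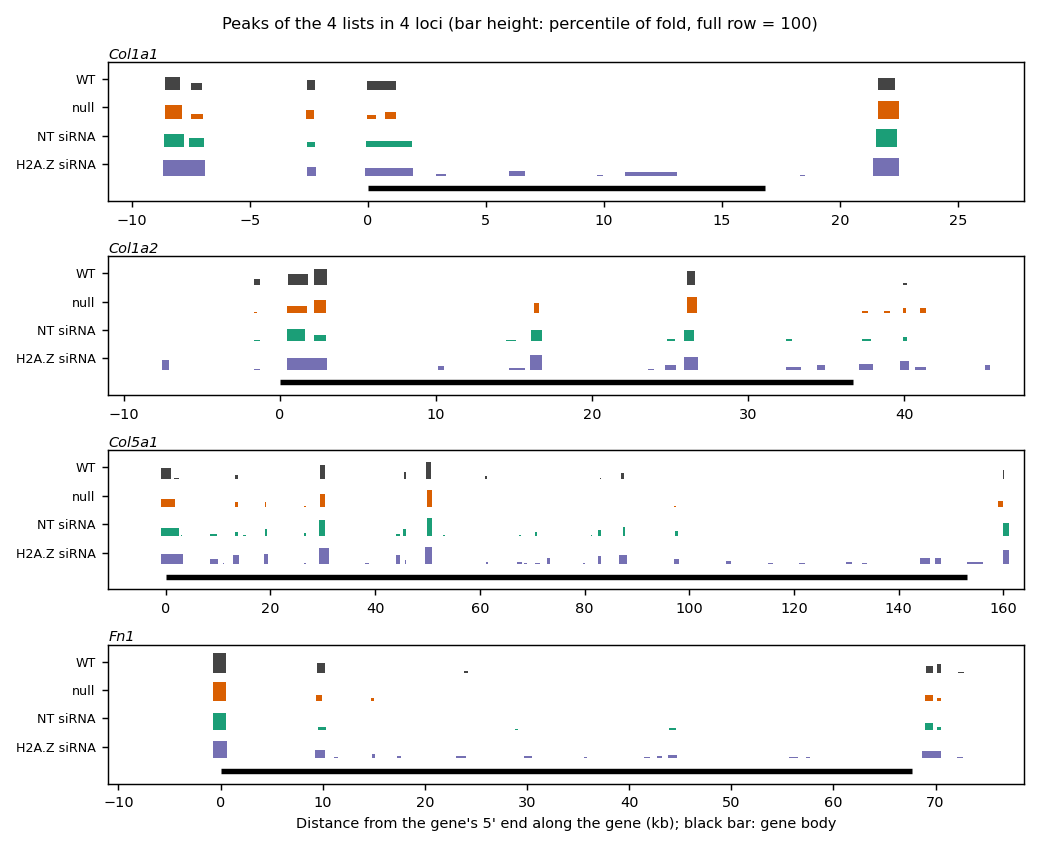
Peaks of the 4 lists along Col1a1, Col1a2, Col5a1 and Fn1, by distance in kb from the 5′ end of the gene in the direction of transcription; each bar is 1 peak, as wide as the peak, with a height in proportion to its fold percentile, and the black line is the gene body. The 6 sites of Col5a1 called in all lists line up between rows, while the 18 found with H2A.Z siRNA alone are low bars, 16 of them inside the gene body.

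Peaks of the 4 lists that overlapped were merged into 552 sites in the matrix loci. Of these, 64 touched the 1 kb around a matrix TSS, 364 lay in a gene body and 124 in the flanks. In all 4 lists 239 sites were called (43.3%, 39.2 to 47.5%), where 45.9% of the 128522 sites of the genome were. The H2A.Z siRNA list alone held 112 sites (20.3%, 17.1 to 23.8%), where 13.9% of the genome did, and WT alone held 14 (2.54%, 1.52 to 4.21%), where 6.94% did. Of the 112, 85 lay in gene bodies. Introns held 339 of the 364 gene body sites.

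Between pairs of lists the matrix loci had shares near those of the genome, with somewhat more sites in the null than in WT and in each siRNA list than in its comparison list. Of 378 sites in WT or the null, 263 were in both, 68 (18%, 14.4 to 22.2%) in the null alone and 47 (12.4%, 9.48 to 16.1%) in WT alone, where the genome had 15.0% and 16.6%. Of 524 sites in the siRNA lists, 150 (28.6%, 24.9 to 32.6%) were in the H2A.Z siRNA list alone, where the genome had 23.6%. The NT siRNA list alone held 21 (4.01%, 2.64 to 6.05%), where the genome had 4.19%. At an equal background these became 17.8% and 7.03%, beside 16.7% and 6.83%, so for this pair the matrix loci were closer to the genome at an equal background. For the null and WT they were not, with 19.1% and 9.81% beside 16.2% and 14.7%. With the same number of peaks kept from each list, 27 sites were in the H2A.Z siRNA list alone and 48 in the NT siRNA list alone, so the direction of the siRNA pair turned with list length. Of 429 sites in NT siRNA or the null, 99 (23.1%, 19.3 to 27.3%) were in NT siRNA alone, where the genome had 19.8%. The null alone held 42 (9.79%, 7.32 to 13.0%), where the genome had 13.3%. With lists of equal length these counts were 63 and 66.

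The sites of highest fold in the matrix loci that were called in all lists lay away from the starts. In Col12a1 an intronic site at chr9:79617239-79617951, 4542 bp from the nearest start, had percentiles of 82.1 in WT, 98.4 in the null, 97.8 with NT siRNA and 99.6 with H2A.Z siRNA, and a second at chr9:79610260-79611027 had 94.0, 94.0, 95 and 98.3. Both were above the TSS peak of the same gene. An intronic site of Fbn1 at chr2:125368543-125369471 had 96.4, 95.4, 85.1 and 92.3. An intronic site of Fbn2 was as strong, at 92.0, 95.9, 95.4 and 98.4.

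The sites of highest fold called in 1 list of a pair and not in the other were mostly weaker. An intronic site of Col8a1 at chr16:57634296-57634598 was absent from the WT list and had percentiles of 64.2 in the null, 92.1 with NT siRNA and 88.4 with H2A.Z siRNA. Another intron of Col8a1, at chr16:57689046-57689443, had a peak at 59.1 in WT, none in the null, and 16.5 and 39.3 in the siRNA lists. An intronic site of Col16a1 at chr4:130060867-130061358 was called in the 2 siRNA lists alone, at 69.0 and 63.6. An intronic site of Col4a1 at chr8:11287199-11287625 had 18.2 in the null and 56.3 with H2A.Z siRNA and was not called in WT or with NT siRNA. An intronic site of Col14a1 at chr15:55464841-55465544 was called with NT siRNA alone, at 61.7. Where a site is not called in a list, its signal there is below the calling threshold and not known to be 0.

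The 201 bases around the summits of 3 such sites are shown to let their letters be compared; they are read from GRCm38.p6 on the plus strand, at chr16:57634289-57634489, chr4:130060981-130061181 and chr8:11287196-11287396, and capitals mark any of the 7 motifs on either strand.
Col8a1: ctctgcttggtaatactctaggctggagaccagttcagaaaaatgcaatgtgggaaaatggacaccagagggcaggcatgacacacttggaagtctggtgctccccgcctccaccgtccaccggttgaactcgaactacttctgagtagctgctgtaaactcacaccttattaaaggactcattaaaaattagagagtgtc
Col16a1: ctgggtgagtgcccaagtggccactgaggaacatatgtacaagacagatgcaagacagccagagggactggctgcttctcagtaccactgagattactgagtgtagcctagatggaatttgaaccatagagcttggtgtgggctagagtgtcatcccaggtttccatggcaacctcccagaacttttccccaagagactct
Col4a1: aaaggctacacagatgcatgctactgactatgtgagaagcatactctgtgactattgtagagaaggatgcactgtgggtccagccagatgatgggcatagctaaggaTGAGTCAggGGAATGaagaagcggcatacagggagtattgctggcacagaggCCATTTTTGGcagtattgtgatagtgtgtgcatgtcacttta

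The window of Col4a1 held 1 AP-1 motif, 1 TEAD motif and 1 CArG box, and those of Col8a1 and Col16a1 held none of the 7. Over all peaks of matrix loci more than 1 kb from any protein-coding start, TGANTCA was found in 83 of 261 such windows in WT (31.8%), 95 of 280 in the null (33.9%), 95 of 330 with NT siRNA (28.8%) and 136 of 435 with H2A.Z siRNA (31.3%). Over all such peaks of the genome the shares were 33.1%, 36.2%, 34.0% and 36.6%. GGAATG was found in 25.3%, 28.9%, 26.7% and 24.1% of the windows of matrix loci, beside 22.8%, 23.8%, 22.3% and 21%, and TGTGGT in 24.1%, 23.6%, 23.9% and 25.1%, beside 22.2%, 22.8%, 22.3% and 22.1%. The genome's share of AP-1 lay inside the matrix loci's interval in WT (26.4 to 37.7%) and the null (28.6 to 39.7%) and just above it with NT siRNA (24.2 to 33.9%) and H2A.Z siRNA (27.1 to 35.8%). The share was larger among the strongest peaks in every list: among the 25% of highest fold in the null list it was 47.1% of 51 windows in matrix loci and 50.6% in the genome, and among the rest 31.0% and 32.6%.

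Other matrix genes, taken as lists by function, gave a setting for these values. All 20 genes of collagen biosynthesis, such as the prolyl and lysyl hydroxylases and the chaperone gene Serpinh1, had a TSS peak in every list, at median percentiles of 84.4, 84.6, 76.8 and 80.1, close to those of all genes. Of 33 other glycoproteins and proteoglycans, 29, 28, 32 and 32 had one, at 63.7, 60.5, 57.6 and 54.9, and of 17 other remodelling genes 16, 16, 17 and 17 had one, at 65.9, 55.6, 59.5 and 64.0. Of 26 other collagen chains, many of them chains of cartilage, epithelia or kidney, 18, 19, 18 and 21 had one, at 63.5, 49.4, 53.4 and 54.9. The other 3 lists had medians below those of all genes, and the biosynthesis list had medians within 5 points of them. Per 100 kb the other collagen chains had a median of 4.22, 3.6, 4.15 and 5.09 peaks, below the 8.70, 10.2, 12.2 and 15.2 of the matrix genes, and the other glycoproteins had 9.74, 10.6, 14.0 and 15.6.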

How the data were processed

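ATAC-Seq of primary MEFs was analysed from the peak lists that the authors deposited, 1 per group, each merged from its libraries (3 for WT, 3 for the null, 1 for NT siRNA, 2 for H2A.Z siRNA, 9 in all). By the study's methods and the submitters' processing notes, reads were aligned to mm10 with Bowtie2, PCR duplicates were removed with Picard and peaks were called with MACS2 in paired-end mode with per-million scaling and no shifting model. A shift of the reads for the transposase is not given in the sources used here. The deposited values of each peak are its fold, a ratio of summit pileup to local background (1 is added to each), the −log10 p and −log10 q of the summit, a display score not used here, and the summit offset.

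Peaks on scaffolds (81 in WT and 67 in the null) and the mitochondrial genome (5 and 6) were left out, which kept 84040, 82567, 89272 and 108409 peaks. The pileup and background were recovered from the fold and the −log10 p; 100% of pileups came out whole within 0.05. A peak belonged to a TSS if it overlapped the 1 kb on either side of any of its gene's annotated starts (179 positions over the matrix genes), and to a locus if it overlapped the gene body or 10 kb on either side. Where several peaks met a start, the highest fold was used. Sites are peaks of the lists merged where they overlap or touch. Shares carry 95% Wilson intervals, medians order-statistic intervals over genes, and single percentiles the exact Poisson interval of the summit pileup. PCR fragments carry no molecular identifiers, so the intervals of shares and single percentiles cover counting error only. Those of medians cover the spread over genes, and none is a replicate error. Read depth per library was not known from the lists, and the background stands in for it; for lists at an equal background, the pileup and background of the deeper list of a pair were scaled down to the shallower one and each peak was tested again at that list's threshold. With 1 list per group no p-value was computed.

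The genes and lists were chosen with earlier results of these data known. Genes named with values were those without a TSS peak in every list, the 3 highest and 3 lowest in mean percentile, the 3 that rose and 3 that fell most in each pair, the 3 densest and 3 sparsest loci, the 5 highest shared peaks, the 3 highest peaks of each pair called in 1 list alone, and Col1a1, Col1a2, Col3a1 and Fn1; the other members are given by role, some peaks met by the rule are not described, and 1 is not reported here. Alternatives covered the peak threshold, list length, depth, start sites, windows, overlap, ranking measure and size of a shift; ranking by pileup and the backgrounds of genes of like rank and of genes with a TSS peak were added after seeing the data. Calculations used Python 3.11.15, NumPy 2.4.6, SciPy 1.17.1, pandas 2.3.3 and matplotlib 3.10.9, and were tested on simulated data.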

Additional observations from a re-analysis of the deposited data

How the results depend on the processing

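Of 309 values over 31 results and 18 settings, 228 stayed within the range taken as the same, 75 moved and 6 turned direction. A median log2 pileup ratio, which is on another scale, counted as the same if its direction held. It did so at -0.00989 (-0.201 to 0.0929) from WT to the null. From NT siRNA to H2A.Z siRNA it did so at 0.00651 (-0.0938 to 0.0844), and both intervals included 0. Any other median counted as the same inside the interval of its main value, and a count within 1.5 times. By that measure no value moved with protein-coding transcripts only, the 5′ end of the gene only, windows of 500 bp or 2 kb, the summit in the window, rank changes relative to all genes, the gene body alone or without peaks at starts of other genes. Within it, the median change from NT siRNA to H2A.Z siRNA went from 4.92 to 2.86, 2.69, 2.86 and 2.84 points with protein-coding transcripts, the 5′ end, the summit in the window and relative to all genes. From WT to the null it went from -6.20 to -3.97 with the summit in the window, with an interval of -8.39 to 0.286 that includes 0. The causes of the other moves were not tested beyond what each setting removes.

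With peaks of a −log10 q of 5 or more, the median rank change from the null to NT siRNA turned to 1.85 points, 23 sites were in WT and not the null, and 21 in the null and not NT siRNA. With each list cut to the length of the shortest (82567 peaks, the highest fold first), the H2A.Z siRNA list had a median TSS percentile of 51.8 and 300 peaks in matrix loci. The median change from NT siRNA to H2A.Z siRNA turned to -3.53 points there, with 2 genes higher and 6 lower by 10 points, 27 sites in H2A.Z siRNA alone and 48 in NT siRNA alone. From the null to NT siRNA it was -5.32 points, with 63 and 66 sites in NT siRNA alone and the null alone.

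With the 20000 peaks of highest fold, TSS peaks were left at 8, 8, 7 and 3 genes in WT, the null, NT siRNA and H2A.Z siRNA, median percentiles were 24.3, 34.6, 16.6 and 31.1, and loci held 54, 60, 52 and 40 peaks. Median widths were 1312 bp in WT, 985 bp with NT siRNA and 1079 bp with H2A.Z siRNA. Median rank changes were -15.3 from WT to the null, -28.5 (turned) from NT siRNA to H2A.Z siRNA and -7.87 from the null to NT siRNA, with 0 higher and 2 lower, 0 and 2, and 1 and 2 genes by 10 points. Sites in 1 list of a pair numbered 17 in the null and not WT, 11 in WT and not the null, 7 in H2A.Z siRNA and not NT siRNA, 12 in NT siRNA and not the null, and 20 in the null and not NT siRNA. So few genes remain that these medians describe a handful of peaks.

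Scaled to an equal genome-wide background, 1 gene was lower with H2A.Z siRNA by 10 points, and 81 and 32 sites were in H2A.Z siRNA alone and NT siRNA alone. Ranked by −log10 p, median percentiles were 75, 75.4, 82.2 and 86.4, 1 gene was lower in the null than WT, 5 were higher with H2A.Z siRNA, and the change from the null to NT siRNA turned to 9.47 points, with 16 genes higher and 1 lower. Ranked by pileup, median percentiles were 80.1, 81.2, 87.5 and 89.2, the change from WT to the null was -0.0534 points with 1 gene lower, 2 genes were higher with H2A.Z siRNA, and the change from the null to NT siRNA turned to 8.70 points, with 14 higher and 2 lower. As log2 pileup ratios relative to all genes, with a shift of 0.5, 1 gene was lower in the null than WT, 3 were higher and 3 lower with H2A.Z siRNA, and from the null to NT siRNA the median turned to 0.528, with 19 higher and 2 lower. By a shift of 5 points, 9 genes were higher and 19 lower in the null than WT, and 18 higher and 3 lower with H2A.Z siRNA. By 20 points, 1 was higher and 2 lower in the null, 1 higher with H2A.Z siRNA, and 2 higher and 2 lower from the null to NT siRNA. With a reciprocal overlap of 50%, 92 sites were in NT siRNA and not H2A.Z siRNA, and 74 in the null and not NT siRNA.

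No paired analysis was possible because the libraries were merged into 1 peak list a group. For the same reason no replicate could be left out, and differences between libraries of a group are not known. Depth limits the weak peaks most: the pileup of Dcn was 25 in WT and 23 in the null, and its percentile intervals there spanned most of the lower range of the list.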
